A study of Boehmeria nivea with 12 samples.

Results

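The 200 unigenes with the most even expression across 12 stem libraries of ramie (Boehmeria nivea), a bast fiber crop, are described here as possible reference transcripts. Unigenes are clusters of transcripts built by the Trinity assembler from sequencing reads, and each is known here by its Trinity identifier alone. Of 66,881 unigenes listed, 9,383 reached an FPKM floor of 10 in every one of the 12 libraries, and 9,283 remained after the 100 with the highest mean FPKM were removed. Each FPKM value was divided by the FPKM total of its library and multiplied by 1,000,000, which puts it on the TPM scale. The 200 unigenes with the smallest SD of log2 TPM over the 12 libraries were then taken, and they are called the stable unigenes, or the members, below. They were chosen by these values, so their levels and spread are a description and carry no test.

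The libraries came from the cultivars Z2 (Zhongzhu no 2) and H4 (Huazhu no 4), with 3 libraries per group. Z2T and H4T were made from stems of cut branches kept in tap water for 10 days, during which adventitious roots can form, and Z2CK and H4CK from stems without water culture. Each library was made from poly(A) RNA of 5 pooled plants, and the spread between libraries is therefore that between pools. The FPKM totals lay between 914,642 (H4CK3) and 1,061,220 (Z2T2), and 30,586 (Z2T1) to 42,401 (H4CK1) unigenes were above 0. The table holds no read counts, so the number of reads behind a single value is not known. Genes that mark stem tissue could not be looked up, since the unigenes carry no gene names.

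A pair of libraries went against their labels. Over 16,801 unigenes, the library labelled Z2T1 correlated at r = 0.81 to 0.82 with the other Z2T libraries and at 0.98 with H4CK2. The library labelled H4CK1 correlated at r = 0.82 to 0.83 with the other H4CK libraries and at 0.98 with Z2T2. The same closest libraries came out when only the deviations of the stable unigenes from their means were used, where Z2T1 was closest to H4CK2 (r = 0.37) and H4CK1 to Z2T2 (r = 0.34). The r values are descriptions across unigenes, which are not independent. The spread of the stable unigenes, their averages, the group comparisons on the TPM scale and the choices from parts of the libraries are given with and without these libraries. The levels of single unigenes and the counts under other scalings are given for all 12 libraries.

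In quantitative PCR, the level of a transcript is read against that of a reference transcript measured in the same sample. A difference of the reference between samples passes in full into every gene set against it. A usable reference therefore varies little between the varieties and treatments compared, and lies in the same range of abundance as the genes of interest. Averages of several references are commonly used, because independent deviations of single transcripts partly cancel.

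The stable unigenes covered a wide range of abundance. Their geometric mean levels lay between 12.6 and 719 TPM with a median of 45.0 TPM, against a median of 38.6 TPM for the 9,283 unigenes that met the floor. Of the stable unigenes, 17 lay between 10 and 20 TPM, 93 between 20 and 50, 64 between 50 and 100, and 26 between 100 and 1000. These were 1.25%, 2.1%, 3.02% and 1.89% of the unigenes that met the floor in the same ranges. Together the stable unigenes made up 1.25% (Z2T2) to 1.33% (H4T3) of the total of a library. The 200 unigenes belonged to 199 Trinity components, and 17 of them (8.5%) were the only unigene of their read cluster, against 9.49% of all that met the floor.

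The SD of log2 TPM of the stable unigenes ran from 0.051 to 0.11 with a median of 0.10, which corresponds to 7.20% on the linear scale. It had a median of 0.30 over the 9,283 unigenes, with a highest value of 3.07. Over the 10 libraries other than H4CK1 and Z2T1 the stable unigenes had SDs of 0.046 to 0.12 with a median of 0.10, against a median of 0.30. The highest of 12 libraries was 1.11 to 1.37 times the lowest in the stable unigenes, with a median of 1.25, against a median of 1.93 over all that met the floor. The rank correlation of SD with level was -0.04 among the stable unigenes and 0.17 among the 9,283 (Spearman's rho across unigenes, a description).

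The unigene with the smallest SD was TRINITY_DN37813_c0_g2. Its levels were 159, 145 and 149 TPM in Z2T, 154, 156 and 160.0 TPM in Z2CK, 148, 146 and 152 TPM in H4T, and 144, 152 and 146 TPM in H4CK. The highest library (Z2CK3) was 1.11 times the lowest (H4CK1), and the libraries overlapped in every comparison but Z2CK over H4CK, where each Z2CK library was above each H4CK library. TRINITY_DN32576_c1_g1, the second, was also the most abundant. It had 729, 673 and 737 TPM in Z2T, 729, 760.3 and 739 TPM in Z2CK, 730.1, 696 and 720.5 TPM in H4T, and 719.5, 727 and 678 TPM in H4CK. Here too the Z2CK libraries lay above all H4CK libraries, by a log2 difference of group means of 0.07.

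The next in order were less abundant. TRINITY_DN32579_c0_g1 had 40.8, 39.2 and 39.0 TPM in Z2T, 40.0, 40.6 and 38.3 TPM in Z2CK, 41.7, 39.1 and 40.3 TPM in H4T, and 37.3, 42.8 and 39.6 TPM in H4CK. Its groups overlapped in all 4 comparisons, and both its lowest and its highest library were H4CK libraries. TRINITY_DN38423_c3_g1 had 15.8, 15.7 and 15.2 TPM in Z2T, 15.7, 15.7 and 15.6 TPM in Z2CK, 15.5, 16.1 and 14.0 TPM in H4T, and 14.6, 15.5 and 15.8 TPM in H4CK. TRINITY_DN40428_c2_g2 had 27.3, 30.0 and 29.4 TPM in Z2T, 30.5, 27.1 and 29.1 TPM in Z2CK, 28.3, 29.4 and 27.4 TPM in H4T, and 27.8, 29.4 and 30.1 TPM in H4CK. Neither differed between groups without overlap of their libraries.

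The remaining members of the first 10 were TRINITY_DN39761_c1_g3, TRINITY_DN42267_c4_g1, TRINITY_DN41494_c1_g1, TRINITY_DN37133_c0_g1 and TRINITY_DN37470_c1_g1. They had geometric means of 29.2, 45.7, 33.7, 75.2 and 107 TPM in that order, and SDs of 0.061 to 0.073. TRINITY_DN41494_c1_g1 had 35.1, 33.6 and 33.9 TPM in Z2T and 32.5, 32.7 and 31.2 TPM in Z2CK, so that all 3 water-cultured Z2 libraries lay above the untreated ones. Its H4T libraries (32.0, 34.6 and 36.4 TPM) overlapped the H4CK libraries (34.0, 33.4 and 35.4 TPM). The Z2CK libraries also lay below all of the H4CK libraries, by a log2 difference of -0.09. TRINITY_DN37470_c1_g1 had 111, 109 and 115 TPM in H4T against 105, 98.2 and 102 TPM in H4CK, without overlap.

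**Figure D1:**
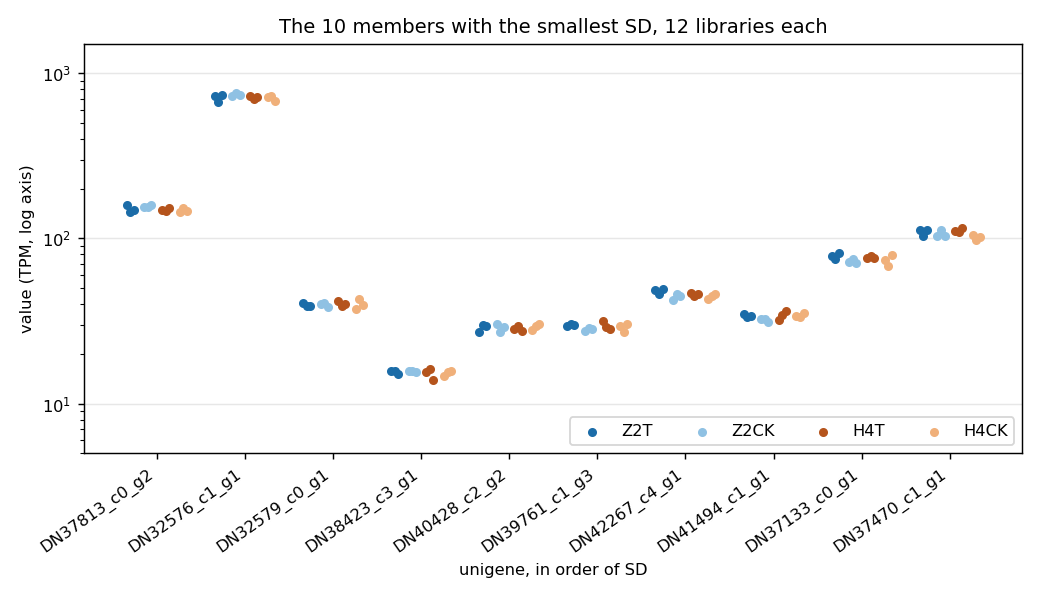
Levels of the 10 stable unigenes with the smallest SD, in TPM on a log axis, with 1 point per library in the 12 libraries, coloured by group and in order of replicate within a group. The points of each unigene form a nearly flat row, from 14.0 to 16.1 TPM for TRINITY_DN38423_c3_g1 up to 673 to 760.3 TPM for TRINITY_DN32576_c1_g1.

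The other most abundant stable unigenes were TRINITY_DN42118_c1_g1 (349 TPM) and TRINITY_DN35168_c0_g2 (287 TPM). TRINITY_DN42118_c1_g1 had 361, 361 and 326 TPM in Z2T, 334, 340.2 and 394 TPM in Z2CK, 335, 346 and 352 TPM in H4T, and 349, 363 and 334 TPM in H4CK, overlapping in all 4 comparisons. The least abundant were TRINITY_DN38062_c2_g1 (12.6 TPM), TRINITY_DN40136_c0_g1 and TRINITY_DN41383_c1_g2 (12.7 TPM each). TRINITY_DN36462_c1_g1 and TRINITY_DN36462_c1_g3 came from the same component and may share reads, so they count as related measurements, and both had their lowest level in H4CK1 (63.7 and 38.8 TPM).

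The limit of 200 fell in a dense part of the order. The last unigenes inside were TRINITY_DN38062_c2_g1 and TRINITY_DN40889_c0_g1, with SDs of 0.1126 and 0.1127. The first outside were TRINITY_DN42025_c3_g1 and TRINITY_DN40513_c2_g1, at 0.1127 each. TRINITY_DN40889_c0_g1 ran from 67.0 to 82.7 TPM and TRINITY_DN42025_c3_g1 from 39.9 to 52.9 TPM.

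The mean of the stable unigenes also moved between libraries. On the log2 scale it stood at 0.011, -0.050 and 0.0034 from its mean in Z2T, -0.0055, -0.0038 and 0.039 in Z2CK, -0.0064, 0.021 and 0.051 in H4T, and -0.047, -0.033 and 0.022 in H4CK. The highest (H4T3) and the lowest (Z2T2) library were 0.10 apart, a ratio of 1.07, and neither was one of the libraries that went against their labels. Over the 9,283 unigenes the mean ranged over 0.26, from -0.15 in Z2T2 to 0.11 in Z2CK3. The stable unigenes had their highest of 12 values in H4T3 38 times and in H4CK1 2 times, against 11.4% and 2.28% of the 9,283 unigenes. Their lowest was in Z2T2 37 times, in H4CK2 36 times and in H4T3 4 times, against 14.5%, 18.1% and 2.98%. The libraries Z2T2 and H4CK1, which had the largest FPKM totals, were the lowest by both means.

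**Figure D2:**
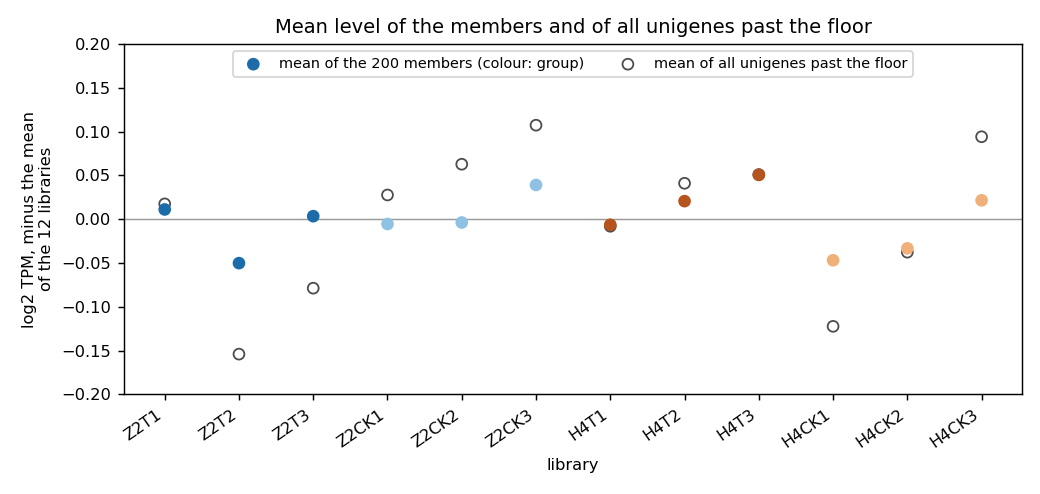
Mean log2 TPM of the 200 stable unigenes (filled points, coloured by group) and of the 9,283 unigenes that met the floor (open points) in each of the 12 libraries, each relative to its own mean over the libraries. The filled points lie within 0.051 of 0, while the open points reach -0.15 in Z2T2.

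The unigenes did not move as 1 block. The first 4 principal components of their deviations held 20.6%, 19.9%, 15.0% and 9.65% of the variance. The first ran between H4T3 (-0.52) and H4CK2 (0.50), and the second set Z2T2 (-0.61), H4CK1 (-0.40) and Z2T3 (-0.35) against H4CK3 (0.38). Over 19,900 pairs of stable unigenes the correlation across the 12 libraries had a median of 0.11, and 90% of pairs lay between -0.48 and 0.63. The first 4 components without H4CK1 and Z2T1 held 23.6%, 20.8%, 14.7% and 11.2%, the first again ran between H4T3 (-0.49) and H4CK2 (0.49), and the median correlation was 0.10.

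Averaging a few unigenes narrowed the range. Taken in order of SD, the first alone had an SD of 0.051 and a range of 0.15 over the libraries. The mean of the first 3 had an SD of 0.040, that of the first 5 of 0.028, of the first 10 of 0.024, and of the first 20 of 0.019 with a range of 0.063. With 50 the SD was 0.025 and with all 200 it was 0.032, so the mean of 20 was the narrowest of the sizes tried. Over the 10 libraries without H4CK1 and Z2T1, in the same order, the SD was 0.046 for the first alone, 0.023 for the mean of 5, 0.019 for 10, 0.016 for 20 and 0.031 for all 200. The order of the unigenes was set on the same values.

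A ranking by geNorm, which scores a transcript by the SD of its log ratios to the other candidates, gave a different order. The score M lay between 0.10 and 0.15 for the 200 with a median of 0.13, and the first 10 by geNorm shared 1 unigene, TRINITY_DN37813_c0_g2, with the first 10 by SD. The last pair left by geNorm was TRINITY_DN34403_c2_g2 and TRINITY_DN40702_c1_g1, which stood at ranks 32 and 42 by SD. TRINITY_DN34403_c2_g2 had 74.3, 65.7 and 71.6 TPM in Z2T, 79.7, 75.7 and 71.4 TPM in Z2CK, 69.8, 71.0 and 69.4 TPM in H4T, and 65.8, 66.5 and 73.3 TPM in H4CK. TRINITY_DN40702_c1_g1 had 121, 100.3 and 107 TPM in Z2T, 120.2, 117 and 117 TPM in Z2CK, 109, 108 and 109 TPM in H4T, and 102, 108 and 111 TPM in H4CK. Both were lowest in Z2T2, and their ratio was steadier (M = 0.046) than either level. The mean of the pair had an SD of 0.082 and a range of 0.27, against 0.047 and 0.14 for the first pair by SD. The pairwise variation on going from 2 to 3 unigenes was 0.016. The last pair changed without H4CK1 and Z2T1, to TRINITY_DN33939_c0_g1 and TRINITY_DN41498_c0_g2 (M = 0.034), at ranks 55 and 156 by SD. Their mean had an SD of 0.10 over the 10 libraries, and the first 10 by geNorm then shared 0 unigenes with the first 10 by SD. These unigenes were named after their values were seen.

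Group means of the stable unigenes lay close together, as the choice by a small SD requires. The log2 differences had medians of -0.029 for Z2T over Z2CK, 0.034 for H4T over H4CK, -0.031 for Z2T over H4T and 0.032 for Z2CK over H4CK, against -0.13, 0.088, -0.12 and 0.087 over the 9,283 unigenes. With all 12 libraries no difference of a stable unigene exceeded 0.25 in size, and 3, 6, 0 and 2 of the 200 exceeded 0.2, in the order of comparisons above, against 60.4%, 59.6%, 55.6% and 53.6% of the 9,283 unigenes. This bears on single pairs of groups only. The SD limit of the choice caps the size of such differences, so nothing is read from the contrast with the 9,283 unigenes. Without H4CK1 and Z2T1 the medians were -0.044, 0.025, -0.056 and 0.015, and the counts over 0.2 were 12, 16, 8 and 7, against 66.3%, 68.1%, 57.1% and 61.7%. Single differences then reached -0.28 and 0.27 in H4T over H4CK, -0.25 in Z2T over H4T and -0.26 in Z2CK over H4CK.

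Some stable unigenes still separated 2 groups, in the sense that all 3 libraries of 1 group lay above all 3 of the other. There were 38 in Z2T over Z2CK (14 higher and 24 lower in Z2T), where 28.3% of the 9,283 unigenes had no overlap (6.93% higher and 21.4% lower). In H4T over H4CK there were 41 (33 higher and 8 lower in H4T), against 28.5% (22.3% higher and 6.18% lower). In Z2T over H4T there were 35 (12 higher and 23 lower in Z2T), against 25.8% (5.43% higher and 20.3% lower). In Z2CK over H4CK there were 25 (21 higher and 4 lower in Z2CK), against 20.5% (15.5% higher and 4.91% lower). These are 19.0%, 20.5%, 17.5% and 12.5% of the stable unigenes. Since the same libraries served the choice, nothing is read from the lower shares. Without H4CK1 and Z2T1 the counts were 73, 72, 76 and 53, against 57.6%, 60.6%, 52.9% and 47.7% of the 9,283 unigenes, and with 2 libraries in a group a separation is reached more easily.

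The member with the largest difference of group means in each comparison shows the size of these separations. TRINITY_DN39590_c2_g1 had 148, 147 and 152 TPM in Z2T against 131, 122 and 133 TPM in Z2CK, a log2 difference of 0.21. TRINITY_DN42353_c0_g1 had 32.9, 34.1 and 32.2 TPM in H4T against 27.9, 28.6 and 27.4 TPM in H4CK, a difference of 0.24. TRINITY_DN39370_c2_g1 had 55.0, 58.5 and 62.7 TPM in Z2T against 67.2, 68.5 and 66.0 TPM in H4T, a difference of -0.20. TRINITY_DN33360_c0_g2 had 82.9, 90.5 and 90.1 TPM in Z2CK against 73.6, 75.0 and 73.8 TPM in H4CK, a difference of 0.24. None of these had overlapping libraries in the comparison named.

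How many comparisons each unigene separated was not counted over the 9,283 unigenes, and the same libraries served the choice. Nothing is therefore read from the following counts. Across comparisons, 105 of the stable unigenes overlapped in all 4, 58 separated in 1, 31 in 2, 5 in 3 and 1 in all 4. The last was TRINITY_DN35810_c3_g1, named after its values were seen, with 36.8, 34.8 and 36.7 TPM in Z2T, 38.9, 37.7 and 37.9 TPM in Z2CK, 39.1, 40.5 and 44.6 TPM in H4T, and 36.6, 34.0 and 37.4 TPM in H4CK. On the TPM scale its water-cultured libraries were lower in Z2 and higher in H4 than the untreated ones. Of the 200, 3 separated by water culture in both cultivars, all in opposite directions. This is 1.5% of the members, against 2.24% of the 9,283 unigenes, of which a further 5.63% separated in both cultivars with 1 direction shared. The difference between cultivars was not tested.

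**Figure D3:**
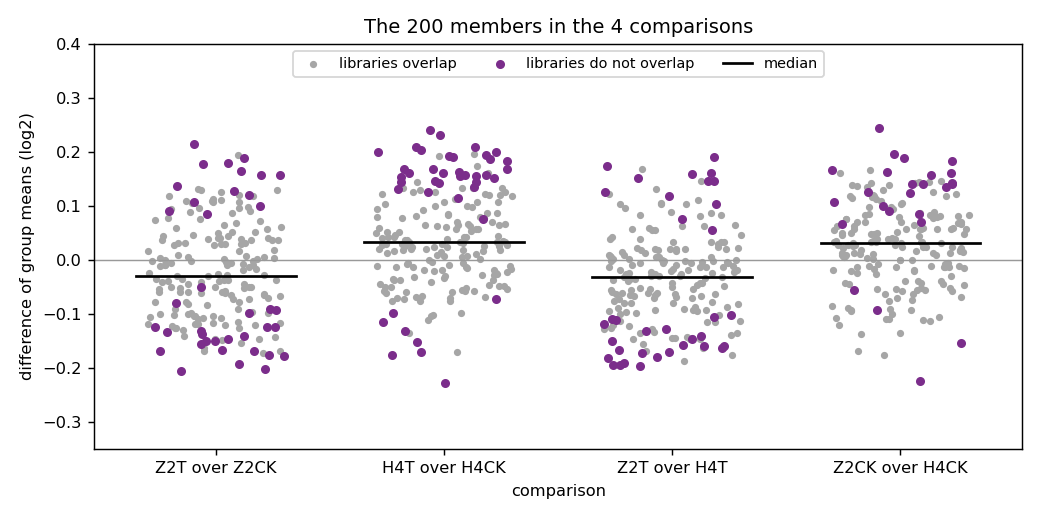
Log2 difference of group means of each of the 200 stable unigenes in the 4 comparisons, with 1 point per unigene, a line at the median, and purple points where the 3 libraries of 1 group lie wholly above or below those of the other. All points lie within 0.25 of 0, and purple points number 38, 41, 35 and 25 from left to right.

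The direction of these small differences depended on how libraries were scaled. The mean of the stable unigenes in Z2T was 0.985 times that in Z2CK on the TPM scale, 1.05 times on the deposited FPKM, 1.09 times after median-of-ratios scaling (each library divided by the median of its ratios to the unigenes' geometric means) and 1.04 times after quantile normalization. In H4T over H4CK the ratios were 1.03, 1.03, 0.953 and 1.00, in Z2T over H4T 0.977, 1.01, 1.08 and 1.01, and in Z2CK over H4CK 1.02, 0.998, 0.942 and 0.974, in the same order. The 4 comparisons without H4CK1 and Z2T1 gave 0.977, 1.02, 0.969 and 1.01 on the TPM scale and 1.09, 0.958, 1.07 and 0.947 after median-of-ratios scaling.

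The counts of separated unigenes moved with the scaling too. With median-of-ratios scaling, 79 stable unigenes were higher and 0 lower in Z2T than in Z2CK, where 14.8% of the 9,283 unigenes were higher and 11.7% lower. In H4T over H4CK 1 was higher and 45 lower, against 13.6% and 13.1%. In Z2T over H4T 80 were higher and 0 lower, against 12.4% and 10.9%, and in Z2CK over H4CK 2 were higher and 43 lower, against 8.35% and 11.2%. The members thus lay largely on 1 side in each comparison under that scaling. They were chosen as even on the TPM scale, so another factor per library moves them together. The contrast with the 9,283 unigenes is therefore no separate result. On the deposited FPKM, 35 were higher and 2 lower in Z2T over Z2CK, against 9.86% and 16.4%, and 25 and 7 in H4T over H4CK, against 19.8% and 8.17%. In Z2T over H4T there were 17 and 6, against 7.8% and 16.4%, and in Z2CK over H4CK 6 and 12, against 11.4% and 7.13%. After quantile normalization, 47 were higher and 3 lower in Z2T over Z2CK, against 10.5% and 15.4%, and 12 and 16 in H4T over H4CK, against 18.8% and 8.67%. There were 22 and 13 in Z2T over H4T, against 7.12% and 17.2%, and 5 and 21 in Z2CK over H4CK, against 10.1% and 8.25%. Since the same libraries served the choice, nothing is read from these shares. Each scaling set its own 0, and no spike-in or other external standard was used here to choose between them.

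The choice itself also depended on the scaling. Of the 200 stable unigenes, 103 were chosen again on the deposited FPKM, 70 after median-of-ratios scaling and 103 after quantile normalization, and 43 under all 4 scalings. The same 200 kept a median SD of 0.10, 0.11 and 0.10 under the other scalings. Of the 200, 129 were chosen whichever of the 12 libraries was left out, and 35 of these were also chosen under all 4 scalings.

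Whether a library that took no part in the choice keeps the levels was read by leaving out each library, choosing 200 unigenes in the other 11 and reading them in the left-out one. The median absolute deviation from the mean of the 11 was 0.071 (H4T1) to 0.12 (H4CK2) on the scale of log2(TPM + 1). It was 0.061 to 0.065 in the 11 libraries themselves, and 0.20 to 0.29 in the left-out library for all unigenes that met the floor. Between 6.5% (H4CK3) and 28% (Z2CK1) of a list deviated by over 0.2, against 50.3% to 63.8% of all that met the floor. The largest deviation in a list lay between 0.32 and 0.70. The mean of the first 10 unigenes shifted by a median of 0.020 in the left-out library and by at most 0.060 (Z2T1), that of the first 3 by 0.045 and at most 0.085 (H4CK1), and that of the first alone by 0.094 and at most 0.14 (H4T3). The mean of all 200 shifted by a median of 0.035 and at most 0.089 (Z2T2). With H4CK1 and Z2T1 set aside and the other 10 libraries left out in turn, the median absolute deviation was 0.083 (H4T2) to 0.16 (H4CK2), against 0.20 to 0.31 for all that met the floor. Between 7.5% (H4T2) and 40.5% (H4CK2) of a list then deviated by over 0.2, against 50.9% to 66.9%, and the mean of the first 10 shifted by at most 0.054 (Z2T2).

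**Figure D4:**
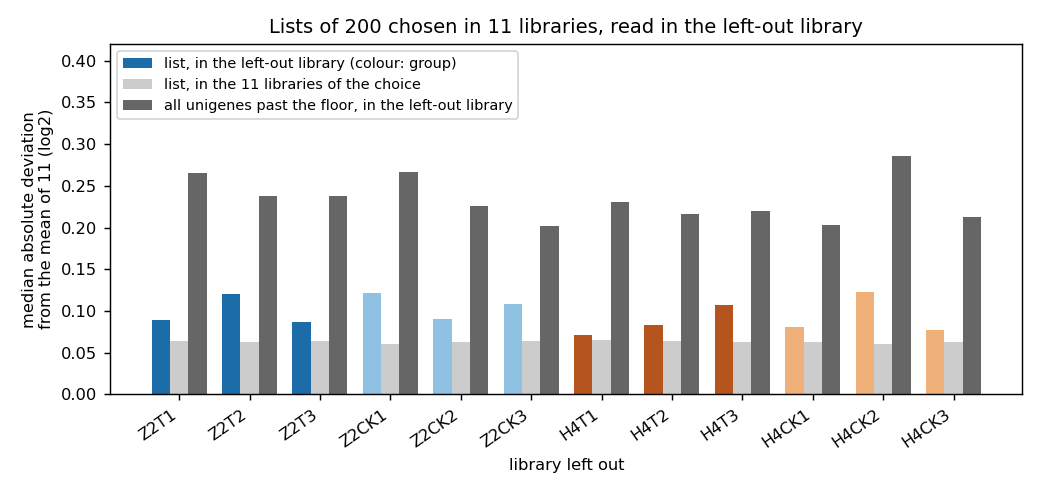
Median absolute deviation from the mean of 11 libraries, on the log2 scale, for 200 unigenes chosen without the library on the x axis, read in that library (coloured by group) and in the 11 libraries of the choice (light grey), beside all unigenes that met the floor read in the left-out library (dark grey). The coloured bars lie between 0.071 and 0.12, above the light grey and below the dark grey bar of every library.

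A stricter reading used 1 cultivar or 1 treatment for the choice and the other 6 libraries for the comparison, so that the libraries compared had no part in it. The rule was the same, with 200 unigenes per choice. Differences were tested with limma on log2(TPM + 1) over all unigenes whose FPKM reached 1 in 3 or more of the 6 libraries compared, with Benjamini-Hochberg adjustment at 0.05. The 200 chosen in the H4 libraries were read in Z2T over Z2CK, those chosen in Z2 in H4T over H4CK, those chosen in the untreated libraries in Z2T over H4T, and those chosen in the water-cultured libraries in Z2CK over H4CK. They shared 85, 85, 70 and 83 unigenes with the 200 stable ones.

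The spread was larger in the libraries not used. For the list from H4 the median SD was 0.15 in the Z2 libraries and 0.070 in the H4 libraries of the choice. The list from Z2 had 0.13 in H4 and 0.075 in Z2, the list from the untreated libraries 0.14 in the water-cultured and 0.071 in the untreated ones, and the list from the water-cultured libraries 0.14 in the untreated and 0.067 in the water-cultured ones. All unigenes that met the floor of each choice had medians of 0.30, 0.27, 0.26 and 0.28 in the libraries not used. The limit of the 200 stable unigenes was set on log2 TPM instead. An SD within it was kept by 53, 66, 56 and 62 of the lists, against 5.12%, 6.20%, 6.75% and 6.32% of all that met the floor. The lists made without H4CK1 and Z2T1 had median SDs of 0.15, 0.15, 0.14 and 0.17 in the libraries not used and of 0.051, 0.057, 0.054 and 0.046 in those of the choice, and all that met the floor had 0.26, 0.26, 0.21 and 0.26 in the libraries not used.

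By limma, 0 of the 200 passed in each of the 4 comparisons, where 0.0614% of all tested unigenes passed in Z2T over Z2CK (14 of 22,786), 0% in H4T over H4CK (0 of 23,032), 0.138% in Z2T over H4T (32 of 23,196) and 0.0488% in Z2CK over H4CK (11 of 22,527). A count of 0 was therefore also near that of the whole table. At an unadjusted p under 0.05 there were 16, 18, 27 and 22 of the 200, which is 8.0%, 9.0%, 13.5% and 11%, against 17.3%, 15.6%, 14.6% and 13.8% of all tested. Without H4CK1 and Z2T1, in the choice and in the comparison, limma called 4, 11, 8 and 6 of the 200, against 14.5%, 23.1%, 16.9% and 8.83% of all tested. Without H4CK1 and Z2T1 the lists thus held unigenes called by water culture and by cultivar, at a lower share than all tested in each comparison.

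With all libraries, separation was at least as frequent in these lists as in the whole table. In Z2T over Z2CK 65 of the 200 did not overlap (19 higher and 46 lower in Z2T), against 26.2% of all tested (7.22% higher and 19% lower). In H4T over H4CK there were 87 (77 higher and 10 lower in H4T), against 23.5% (17.8% higher and 5.7% lower). In Z2T over H4T there were 75 (6 higher and 69 lower in Z2T), against 23.2% (5.5% higher and 17.7% lower). In Z2CK over H4CK there were 59 (50 higher and 9 lower in Z2CK), against 20.9% (15% higher and 5.86% lower). As shares of the lists these counts are 32.5%, 43.5%, 37.5% and 29.5%. Of the unigenes that met the floor of each choice, 28.7%, 28.8%, 25.9% and 20.9% did not overlap. Without H4CK1 and Z2T1 the counts on the TPM scale were 82, 112, 97 and 96, against 52.9%, 55.1%, 52.4% and 49.1% of all tested. These are 41%, 56%, 48.5% and 48% of the lists, above the share of all tested in H4T over H4CK only. Of the unigenes that met the floor, 57.1%, 60.5%, 53.1% and 48.4% then did not overlap.

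The split into higher and lower was different where lists were both chosen and read with another scaling. With median-of-ratios scaling, 40 of the 200 were higher and 33 lower in Z2T over Z2CK, against 12.3% and 12% of all tested, and 29 and 30 in H4T over H4CK, against 11.5% and 10.5%. There were 25 and 31 in Z2T over H4T, against 9.85% and 11.3%, and 17 and 23 in Z2CK over H4CK, against 10% and 9.35%. The lists were thus nearer to even between directions there than on the TPM scale. On the deposited FPKM, 28 were higher and 35 lower in Z2T over Z2CK, against 9% and 15%, and 52 and 25 in H4T over H4CK, against 16.2% and 6.79%. There were 19 and 47 in Z2T over H4T, against 6.89% and 15.3%, and 32 and 15 in Z2CK over H4CK, against 11.9% and 7.3%. After quantile normalization, 31 were higher and 44 lower in Z2T over Z2CK, against 6.67% and 20.5%, and 49 and 18 in H4T over H4CK, against 16.8% and 5.25%. There were 14 and 55 in Z2T over H4T, against 4.61% and 17.2%, and 25 and 22 in Z2CK over H4CK, against 16.1% and 5.19%.

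Median absolute log2 differences of the lists were 0.14, 0.16, 0.16 and 0.13 in the order of comparisons above, against 0.26, 0.26, 0.23 and 0.22 for all unigenes that met the floor. An absolute difference over 0.2 was reached by 71, 69, 74 and 61 of the 200, against 60.6%, 59.6%, 55.3% and 54.1%. The medians without H4CK1 and Z2T1 were 0.15, 0.19, 0.14 and 0.18, against 0.32, 0.34, 0.24 and 0.29, and 65, 97, 73 and 96 of the 200 were over 0.2, against 66.4%, 68.5%, 57.3% and 63.6%. A few unigenes that were even in 6 libraries were not in the other 6. TRINITY_DN36031_c1_g2, chosen in the water-cultured libraries with 27.8, 27.0 and 29.7 TPM in Z2T and 29.8, 28.9 and 29.5 TPM in H4T, had 91.1, 125 and 97.7 TPM in Z2CK against 25.9, 21.0 and 67.6 TPM in H4CK. TRINITY_DN38580_c1_g1, chosen in the untreated libraries with 12.4, 13.0 and 12.9 TPM in Z2CK and 13.5, 14.7 and 13.2 TPM in H4CK, had 3.14, 11.4 and 12.7 TPM in Z2T against 13.8, 18.1 and 18.0 TPM in H4T. Its low value came from the library labelled Z2T1. Both were named after their values were seen, and neither is among the 200 stable unigenes.

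**Figure D5:**
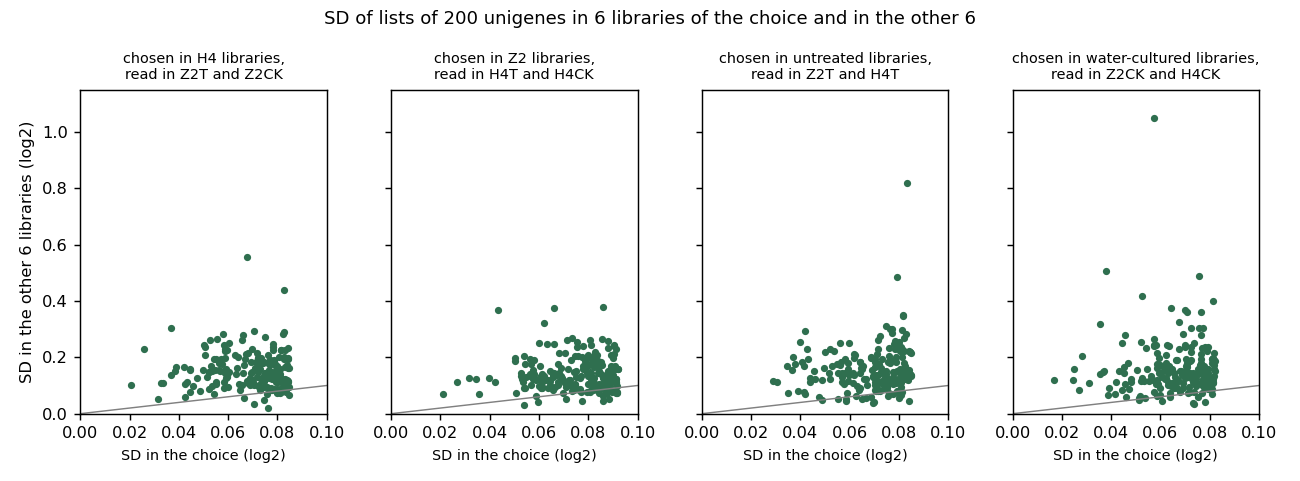
SD of 200 unigenes in the 6 libraries by which they were chosen (x axis, log2 TPM) and in the other 6 libraries (y axis, log2(TPM + 1)), with 1 point per unigene and a line where both are equal, for choices in H4, in Z2, in the untreated and in the water-cultured libraries. Most points lie above the line, at medians of 0.15, 0.13, 0.14 and 0.14 on the y axis.

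The 4 lists held 584 different unigenes. The lists from H4 and Z2 shared 26, and those from the untreated and the water-cultured libraries, which also have no library in common, shared 24. In each case this is 26 or 24 of 200 in both lists. The choices drew on 9,895 (H4), 9,722 (Z2), 9,719 (untreated) and 9,971 (water-cultured) unigenes that met the floor. Of the 200 stable unigenes, 30 were in none of the 4 lists, 63 in 1, 74 in 2, 20 in 3 and 13 in all 4. The 13 were the first 10 by SD together with TRINITY_DN33791_c0_g1, TRINITY_DN36265_c0_g1 and TRINITY_DN35680_c2_g1. A small SD over 12 libraries limits the SD over 6 of them, so this count is no separate support.

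Only TRINITY_DN37813_c0_g2, TRINITY_DN32576_c1_g1, TRINITY_DN33791_c0_g1 and TRINITY_DN36265_c0_g1 were chosen under all 4 scalings, with each library left out, without H4CK1 and Z2T1, and in all 4 part choices. They lay at 151, 719, 123 and 32.8 TPM. All these choices reuse the same 12 libraries and favour a small SD, so passing them all is no separate support. In TRINITY_DN37813_c0_g2 and TRINITY_DN32576_c1_g1 the Z2CK libraries lay above all H4CK libraries. TRINITY_DN33791_c0_g1 had 126, 109 and 116 TPM in Z2T, 123, 129 and 119 TPM in Z2CK, 122, 122 and 123 TPM in H4T, and 127, 125 and 134 TPM in H4CK, with the H4T libraries below those of H4CK by a log2 difference of -0.07. TRINITY_DN36265_c0_g1 had 32.4, 30.8 and 35.2 TPM in Z2T, 30.2, 34.2 and 33.7 TPM in Z2CK, 34.1, 34.6 and 34.1 TPM in H4T, and 30.2, 31.5 and 32.6 TPM in H4CK, with the H4T libraries above those of H4CK by 0.13. No measurement by PCR was analysed here.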

How the data were processed

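RNA-seq of 12 ramie stem libraries (4 groups of 3) was analysed from 1 table. It holds the FPKM values that the authors deposited, rounded to 2 decimals, of 66,881 Trinity unigenes. The authors describe mapping to a ramie genome, quantification with RSEM and testing with DESeq2. For the Trinity table, the assembly and quantification are not given in the sources used here. FPKM values are not counts. The study states read totals per library, but the table gives no reads per unigene, so no counting interval was computed.

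Each column was matched to its library by label. The members and lists were chosen with earlier results of these data known. The 200 members were taken as described, with the 100 highest removed among the unigenes that met the floor. Named unigenes were the 10 members with the smallest SD, the 3 highest and 3 lowest by level, 2 on each side of the limit, the largest difference in each comparison, members in all 4 part choices (at most 10 by level), list members called by limma, and pairs from 1 component. Tests used limma 3.58.1 in R 4.3.3 (trend, pseudocount of 1), and tables numpy 2.4.6, pandas 2.3.3 and, for plots, matplotlib 3.10.9 under Python 3.11.15. Both steps were tested on simulated data, with planted spreads and shifts much clearer than those of the real lists. These tests therefore do not bear on the limit of 200 or on small shifts. Alternatives were other scalings, floors, log scales, measures of spread, filters, thresholds and fits, a replicate block, and left-out libraries. Taking the 100 highest over all unigenes, and the averages, left-out readings and scalings without H4CK1 and Z2T1, were added after seeing the data.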

Additional observations from a re-analysis of the deposited data

Results flagged for a closer look

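Of the unigenes named, TRINITY_DN35810_c3_g1 stood out on the TPM scale. All its water-cultured libraries lay below the untreated ones in Z2 and above them in H4. The log2 difference was -0.081 for Z2T over Z2CK and 0.20 for H4T over H4CK, with 3 libraries per group. On the deposited FPKM its water-cultured and untreated libraries overlapped in both cultivars. The difference between the cultivars was not tested. Setting H4CK1 and Z2T1 aside cannot undo a separation on the TPM scale, so it adds no support.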

How the results depend on the processing

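Of the 200 stable unigenes, 103 were chosen again on the deposited FPKM, 70 after median-of-ratios scaling, 103 after quantile normalization, 94 by the median absolute deviation and 80 by the SD within groups. Floors of 5 and 20, keeping the 100 highest, a pseudocount of 1, the CV and the choice without the libraries labelled H4CK1 and Z2T1 gave 155 to 200, and leaving out 1 library gave 155 to 180. The range of their mean (0.10) was 0.15 on the deposited FPKM and after median-of-ratios scaling, and 0.16 for the median of the 200. With 1 library left out it was 0.089 to 0.10, where leaving out can only keep or narrow a range.

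By limma, 0 of each list of 200 from 6 libraries passed. Without H4CK1 and Z2T1 there were 4 in Z2T over Z2CK, 11 in H4T over H4CK, 8 in Z2T over H4T and 6 in Z2CK over H4CK. Of all tested, 14.5%, 23.1%, 16.9% and 8.83% then passed. With 12 libraries in 1 fit there were 1 in Z2T over Z2CK (2.0% of all 27,628 tested unigenes) and 3 in Z2T over H4T (0.72%). That fit takes its spread partly from the libraries of the choice, so nothing is read from these counts. With 1 library left out the counts were 0 to 0 in Z2T over Z2CK, where 14.5% of all tested passed without Z2T1, 0 to 3 in H4T over H4CK (3 without H4CK1, against 23.1%), 0 to 11 in Z2T over H4T (11 without Z2T1, against 16.9%) and 0 to 1 in Z2CK over H4CK (1 without H4CK1, against 8.83%). Scalings, pseudocount and filter left all 4 counts at 0. The other threshold was stricter than the main one, so it could only give 0. Unigenes of these lists without overlap numbered 76 to 95, 94 to 122, 82 to 119 (119 without Z2T3, against 32.9% of all tested) and 73 to 85 with 1 library left out, and 96 in Z2CK over H4CK without H4CK1 and Z2T1. Of all tested, 31.9% to 52.9%, 28.4% to 55.1%, 27.0% to 52.4% and 25.3% to 49.1% did not overlap with 1 library left out. The causes were not tested.

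No pairing of samples by replicate number was seen, but the checks could not exclude it. Same-numbered libraries correlated at -0.21 to 0.17 in their deviations from group means, which include H4CK1 and Z2T1. With the replicate number as a block limma called 0 in every list. It also called 0 without the block, so these counts do not bear on pairing.

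The main limits are 3 libraries per group, no read counts per unigene, unigenes without names and a pair of libraries that go against their labels.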
